A study of Mus musculus with 8 samples.

Results

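The genes described here are 8 stress-responsive genes of alveolar type II (AT2) cells: the transcription factors *Fos*, *Fosb*, *Jun* and *Atf3*, the heat shock genes *Hspa1a*, *Hspa1b* and *Hspb1*, and *Eif2ak3*, which encodes the kinase PERK. They were chosen by name, with their values in this comparison already known, from the 812 genes of the authors' deposited table. That table lists only genes that the authors marked as significant, so the direction and the presence of each of the 8 genes were part of the choice and are given as a description. The study's text reports fewer differentially expressed genes than the table lists, and whether the 8 genes are among those was not checked. AT2 cells, which make surfactant and renew the alveolar epithelium, came from C57BL/6 mice of 2 genotypes. The WT group was RhoA fl/fl, and the RhoA-deficient group was Sftpc-cre;RhoA fl/fl, where Cre driven by the promoter of *Sftpc*, a surfactant gene of AT2 cells, deletes *RhoA*. Both groups thus carried the floxed allele, and both received cockroach extract (CRE). There were 4 labelled samples per genotype, and whether these are separate mice is not given in the sources used here. According to the labels, single-passage cultured cells were exposed to CRE (50 μg/mL) during 16 hours, whereas the study's text speaks of cells from mouse models of asthma. The study also saw Sftpc in basal cells of the lung, but found *RhoA* deleted in AT2 cells and not in basal cells or central airways.

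Messenger RNA was sequenced, and the table gives each gene 1 value per genotype in FPKM, which is a fragment count scaled to transcript length and to the size of the library. These are averages made by the authors, so values per sample, the spread between samples and the depth of the libraries are unknown. Replicate error is therefore missing from all comparisons that follow, and no test was run. Because FPKM is scaled to length, levels can be compared between genes. Differences are given as RhoA-deficient minus WT in log2(FPKM + 1), where the 1 is a pseudocount that understates the change of genes with low FPKM. *Rhoa* itself is not among the genes of the table, so its deletion was not checked here.

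*Fos*, *Fosb* and *Jun* are early response genes, whose transcription starts within minutes of a stimulus without new protein synthesis. Fos proteins pair with Jun proteins to form AP-1, a dimer that binds DNA through a basic region and a leucine zipper, and ATF3 is a related factor that is induced by many kinds of stress. *Hspa1a* and *Hspa1b* encode the inducible HSP70 chaperones, and *Hspb1* encodes a small heat shock protein that holds unfolded proteins and acts on actin filaments. PERK senses unfolded proteins in the endoplasmic reticulum (ER) and phosphorylates eIF2α, which slows translation in general and favours that of ATF4. RhoA, a small GTPase of the actin cytoskeleton, is known to act on transcription through serum response factor (SRF) and its actin-regulated cofactors, the MRTFs, and SRF is also a regulator of *Fos*.

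All 8 genes had a higher level in RhoA-deficient than in WT AT2 cells on the authors' scaling, and 7 of the 8 differences lay below the median difference of the AT2 marker genes, which was 1.15. That median is over the 12 AT2 markers in the table, which carry the same mark of significance. Markers with little change may be missing from it, so it is not a neutral reference. Among the 448 genes of the table that were higher in the RhoA-deficient group, 135 lay above that median, so lying below it was common among them. Of the genes in the table, 55.2% were higher in the RhoA-deficient group and 44.8% were lower. The median difference of the 8 genes was 0.82, with a range from 0.59 to 1.33, against a median of 0.94 over the 448 higher genes of the table. A difference of at least 2-fold was reached by *Fos* and *Hspa1b*. These are 25% of the 8 genes, and 23.6% of the genes in the table were at least 2-fold higher on this scale, so the share was near that of the table. None of the 8 was at least 2-fold lower, as 28.4% of the genes in the table were. All 8 genes were at least 1.5-fold higher, as were 434 genes of the table.

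**Figure D1:**
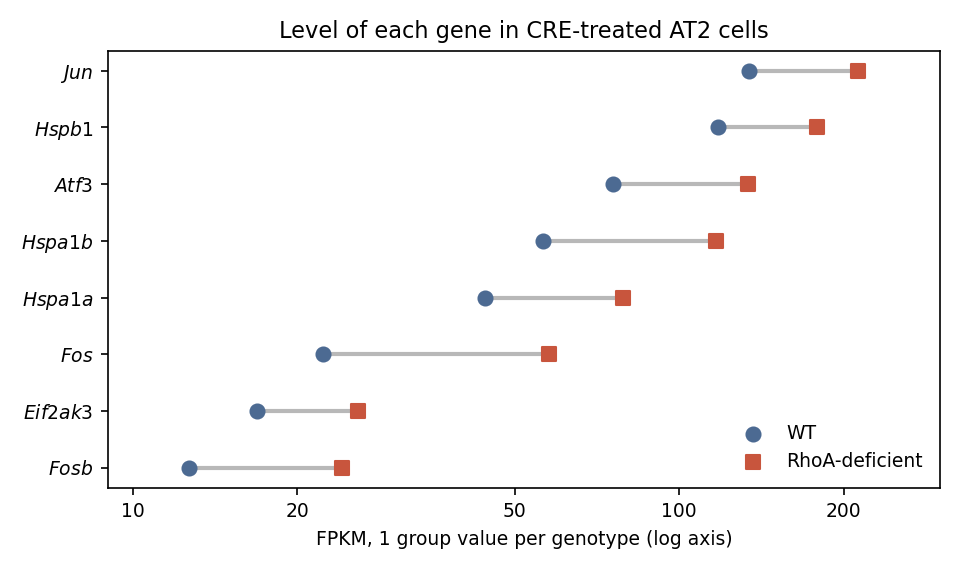
FPKM of the 8 genes in WT (circles) and RhoA-deficient (squares) CRE-treated AT2 cells on a log axis, with 1 group value per genotype and no error bar because the spread is unknown. *Jun* had the highest level in both groups (134.4 and 212.5) and *Fosb* the lowest (12.7 and 24.1), and every gene lay further right in the RhoA-deficient group on the authors' scaling.

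The order of the 8 levels was the same in both groups. From high to low it ran *Jun*, *Hspb1*, *Atf3*, *Hspa1b*, *Hspa1a*, *Fos*, *Eif2ak3* and *Fosb*. Because no spread is known, it cannot be said which neighbours in this order differ beyond error. All 8 were above the median level of the table in WT, which was 12.1 FPKM, although *Fosb* was so by less than 1 FPKM. In WT, *Jun* ranked 42 and *Hspb1* ranked 53 by level among the 812 genes, whereas *Eif2ak3* ranked 343 and *Fosb* ranked 399.

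Among the AP-1 genes, *Fos* had the largest difference. It stood at 22.3 FPKM in WT against 57.7 FPKM in RhoA-deficient cells, a ratio of 2.59 and a difference of 1.33 in log2(FPKM + 1), which ranked 93 of the 448 higher genes. *Fosb*, a paralog of *Fos*, had an FPKM of 12.7 in WT and 24.1 in RhoA-deficient cells, with a difference of 0.88. *Jun* had an FPKM of 134.4 in WT and 212.5 in RhoA-deficient cells, which is a gain of 78.2 FPKM and the largest of the 8 on the linear scale. On the log scale its difference was 0.66, rank 400 of the higher genes. The 2 scales thus order *Fos* and *Jun* in opposite ways, and *Jun* started from the higher level. *Atf3*, the stress-induced family member, had an FPKM of 75.6 in WT and 133.8 in RhoA-deficient cells, with a difference of 0.82.

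*Fos* took a larger share of this group of 4 factors in the RhoA-deficient cells. The FPKM of *Fos* relative to that of *Jun* was 0.166 in WT and 0.272 in RhoA-deficient cells, a ratio that does not depend on how the groups were scaled. *Fos* made up 9.10% of the summed FPKM of the 4 genes in WT and 13.5% in the RhoA-deficient group. *Jun* made up 54.8% and 49.6%, and the shares of *Atf3*, 30.9% and 31.3%, and of *Fosb*, 5.18% and 5.64%, lay closer together. Of the 27 genes of the wider AP-1 and ATF family that were looked up, these 4 were in the table, and the remaining 23, among them *Junb*, *Jund*, *Fosl1*, *Fosl2* and *Atf4*, were not analysed here.

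*Fos* (ENSMUSG00000021250.13) lies at chr12:85473890-85477273 of GRCm38 on the plus strand, and its 4 annotated transcripts have 3 or 4 exons. *Fosb* (ENSMUSG00000003545.3) lies at chr7:19302696-19310051 on the minus strand. *Jun* (ENSMUSG00000052684.4) lies at chr4:95049034-95052222 on the minus strand and has a single exon. The locus that the table gives for *Jun* ends at 95167318, which is also the end of the antisense gene *Junos*, and 7.28% of the exonic bases of *Jun* are covered by exons of *Junos*. Whether strand entered the authors' estimates is not given in the sources used here, so reads of this overlap are uncertain. *Atf3* (ENSMUSG00000026628.13) lies at chr1:191170296-191218039 on the minus strand and has up to 5 exons. No window of 50 bases in the annotated transcripts of *Fos*, *Fosb*, *Jun* or *Atf3* also occurs in the transcript of another gene.

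The sequences upstream of 3 of these genes are shown because each holds a match to a different element among those searched. Each is the stretch of 150 bases before the transcription start from RefSeq (GRCm38.p6), written 5′ to 3′ on the strand of the gene, with matches in capitals. The capitals mark a TATA box (TATAAA) in *Fos*, the heat shock element GAANNTTC and a CCAAT box in *Jun*, and the core that ATF4 and C/EBP factors share (TGATGNAA, here on the opposite strand) in *Atf3*. They lie at chr12:85473740-85473889 for *Fos*, chr4:95052223-95052372 for *Jun* and chr1:191183334-191183483 for *Atf3*, whose RefSeq start lies inside the gene span given above.
Fos: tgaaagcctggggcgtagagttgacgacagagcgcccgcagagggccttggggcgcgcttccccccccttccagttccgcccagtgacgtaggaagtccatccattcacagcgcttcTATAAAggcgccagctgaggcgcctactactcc
Jun: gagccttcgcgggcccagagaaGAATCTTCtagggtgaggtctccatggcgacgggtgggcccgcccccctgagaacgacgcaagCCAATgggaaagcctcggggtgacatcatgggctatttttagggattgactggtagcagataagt
Atf3: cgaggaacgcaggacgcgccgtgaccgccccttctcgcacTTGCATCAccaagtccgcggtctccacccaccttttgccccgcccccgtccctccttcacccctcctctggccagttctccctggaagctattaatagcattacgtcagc

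Among the heat shock genes, *Hspa1b* had the largest difference. The FPKM of *Hspa1b* was 56.4 in WT and 117.0 in RhoA-deficient cells, with a difference of 1.04 in log2(FPKM + 1). Its neighbour *Hspa1a* had an FPKM of 44.2 in WT and 78.8 in RhoA-deficient cells, with a difference of 0.82. *Hspb1*, the most abundant of the 3, had an FPKM of 117.6 in WT and 178.5 in RhoA-deficient cells, with a difference of 0.60. The gain in FPKM was nearly equal for *Hspa1b* and *Hspb1*, at 60.6 and 60.9. The ratio of *Hspb1* to *Hspa1b*, which does not depend on scaling between the groups, was 2.08 in WT and 1.53 in RhoA-deficient cells. The summed FPKM of the 3 genes was 218.2 in WT and 374.4 in RhoA-deficient cells.

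*Hspa1a* (ENSMUSG00000091971.3, chr17:34969190-34972156) and *Hspa1b* (ENSMUSG00000090877.3, chr17:34956436-34959238) are near-identical copies of 1 exon each on the minus strand of GRCm38. Their coding sequences, aligned over 1926 columns, are identical at 99.5% of them. Of the windows of 50 bases in each transcript, 60.3% of those of *Hspa1a* and 62.3% of those of *Hspa1b* also occur in another gene, foremost the other copy. The related gene *Hspa1l* shares some of these windows. The split of reads between the copies is therefore uncertain, and so, to the extent of reads shared with *Hspa1l* and of the unequal transcript lengths, is their sum. The summed FPKM of the pair was 100.6 in WT and 195.9 in RhoA-deficient cells. The ratio of *Hspa1b* to *Hspa1a* was 1.28 in WT and 1.48 in RhoA-deficient cells, and it rests on the part of the transcripts that differs. In addition, 19.0% of the exonic bases of *Hspa1a* are covered by exons of *Gm20481* on the opposite strand. *Hspb1* (ENSMUSG00000004951.10) lies at chr5:135887919-135889563 on the plus strand and has 2 or 3 exons. Of its windows of 50 bases, 48.8% also occur in the processed pseudogene *Hsp25-ps1*, so its value is uncertain to the extent that the authors' counting divided such reads.

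The promoters of the 3 heat shock genes are shown because all of them hold the heat shock element, the site bound by heat shock factor 1. As above, each is 150 bases before the RefSeq transcription start of GRCm38.p6, 5′ to 3′ on the strand of the gene. Capitals mark GAANNTTC and, in the *Hspa1* pair, the CCAAT box, which is on the opposite strand there. They lie at chr17:34972157-34972306 for *Hspa1a*, chr17:34959239-34959388 for *Hspa1b* and chr5:135887769-135887918 for *Hspb1*.
Hspa1a: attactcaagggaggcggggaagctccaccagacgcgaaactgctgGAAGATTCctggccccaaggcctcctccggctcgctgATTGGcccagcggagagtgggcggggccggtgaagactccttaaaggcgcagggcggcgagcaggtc
Hspa1b: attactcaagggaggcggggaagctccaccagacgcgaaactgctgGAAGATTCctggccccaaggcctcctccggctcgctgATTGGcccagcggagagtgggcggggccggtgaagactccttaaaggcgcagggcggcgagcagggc
Hspb1: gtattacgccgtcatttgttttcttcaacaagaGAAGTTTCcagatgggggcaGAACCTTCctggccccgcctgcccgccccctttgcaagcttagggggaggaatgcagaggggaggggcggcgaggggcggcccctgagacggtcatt

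Over the full 250 bases upstream, *Hspa1a* and *Hspa1b* differ at 3 positions, written as C44T, T47C and T249G with the base of *Hspa1a* first and positions counted from 1 at the 5′ end. The heat shock element and the CCAAT box are at the same distance in both, from -104 to -97 and from -67 to -63 relative to the transcription start. *Hspb1* holds 2 heat shock elements, from -117 to -110 and from -97 to -90.

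*Eif2ak3* (ENSMUSG00000031668.14) lies at chr6:70844515-70905245 of GRCm38 on the plus strand and has up to 17 exons. Its level was 16.9 FPKM in WT against 25.9 FPKM in RhoA-deficient cells. The ratio was 1.53. At the pseudocount of 1, the difference of 0.59 was the smallest of the 8, rank 434 of the 448 higher genes. *Hspb1* had a smaller ratio, 1.52. With pseudocounts of 0.1 and 0.01 it also had the smallest difference, at 0.60 against 0.61 for *Eif2ak3*. Exons of *Gm43292* on the opposite strand cover 8.05% of the exonic bases of *Eif2ak3*, and no window of 50 bases is shared with the transcript of another gene. It was the single gene in the table of 17 looked up as kinases, phosphatases and subunits around eIF2α, and the kinases *Eif2ak1*, *Eif2ak2* and *Eif2ak4* were not analysed here. The 250 bases upstream of *Eif2ak3*, at chr6:70844265-70844514 of GRCm38.p6, are shown in full because they hold more matches than those of any other of the 8 genes. Capitals mark, in order, 2 CCAAT boxes, the heat shock element TTCNNGAA, the AP-1 site TGANTCA directly followed by a CCAAT box, and then 3 more CCAAT boxes on either strand.
Eif2ak3: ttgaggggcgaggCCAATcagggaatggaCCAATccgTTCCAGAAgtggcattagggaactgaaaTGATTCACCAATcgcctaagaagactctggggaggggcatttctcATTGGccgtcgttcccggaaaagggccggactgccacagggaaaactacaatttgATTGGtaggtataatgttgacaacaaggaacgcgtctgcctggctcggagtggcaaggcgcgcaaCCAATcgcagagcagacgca

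The motifs were searched on both strands of the 250 bases upstream, and all 8 genes had a promoter entry. A heat shock element, as GAANNTTC or TTCNNGAA, was present in 5 of the 8, namely *Jun*, *Hspa1a*, *Hspa1b*, *Hspb1* and *Eif2ak3*, and in 12.8% of all 32851 RefSeq promoter entries. The CCAAT box was present in 4 of the 8 and in 33.8% of all entries. The AP-1 site TGANTCA was found in *Eif2ak3* and in 6.75% of all entries, the TATA box in *Fos* and in 12.4%, and the ATF4 composite core in *Atf3* and in 3.45%. The cAMP response element TGACGTCA and the CArG box bound by SRF had no match in the 8, with 1.55% and 1.47% of all entries holding them, and *Fosb* had no match to any of these motifs. No matches overlapped. The 2 *Hspa1* promoters are copies, so the 5 genes with a heat shock element are not 5 independent sequences. A match describes letters in this window and is not evidence of binding. Sites further upstream, and sites that depart from these exact letters, were not searched, so a missing match does not show that such a site is absent.

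**Figure D2:**
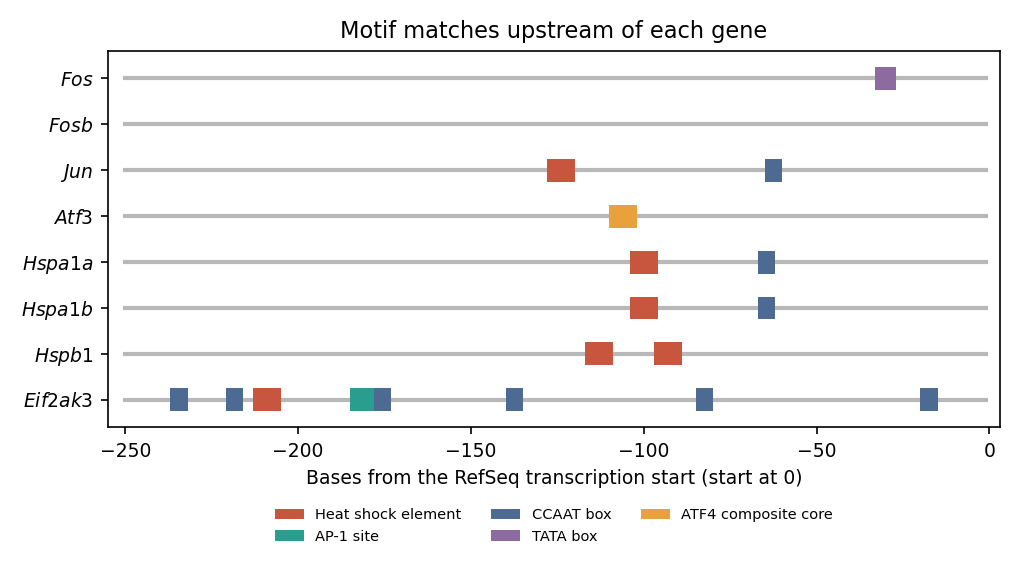
Positions of motif matches in the 250 bases upstream of the RefSeq transcription start of each of the 8 genes, with distance in bases on the horizontal axis and colours for the kind of motif. Heat shock elements lie upstream of 5 genes, and *Eif2ak3* holds 6 CCAAT boxes.

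A compact gene body was shared by most of the 8 genes. Span was not a criterion, but the genes were chosen by name and kind, so it may not be independent of that choice. *Hspa1a* and *Hspa1b* are near-identical copies and do not count as separate cases. The span from start to end was at most 10 kb in 6 of the 8 genes, while 25% of the genes in the table were that short and their median span was 25.6 kb. The exceptions were *Atf3*, with 47744 bases, and *Eif2ak3*, with 60731 bases. *Hspa1a* and *Hspa1b* lie within 100 kb of each other and of *C2*, a complement gene, and the other 6 genes had no gene of the table within that distance.

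Of 58 early response genes outside the AP-1 family, 11 were in the table, and the other 47 were not analysed here. On the authors' scaling, 9 of the 11 were higher and 2 were lower, beside 55.2% higher in the whole table, with a median difference of 0.88, but relative to the AT2 markers only *Cxcl2* stayed higher. *Cxcl2* and *Cxcl1*, which encode chemokines for neutrophils, had differences of 1.44 and 0.97. *Cxcl2* had an FPKM of 42.8 in WT and 117.8 in RhoA-deficient cells. The granulocyte marker *S100a9*, with 2.69 and 16.5 FPKM, and the macrophage marker *Cd14*, with 65.8 and 132.0 FPKM, were higher in RhoA-deficient cells too. The macrophage marker *Lpl*, with 11.9 and 4.08 FPKM, and *Ptprc*, which encodes the leukocyte antigen CD45, with 21.5 and 7.41 FPKM, were lower. The study's isolation of AT2 cells included removal of leukocytes by antibodies to CD45 and CD16/32 and by panning on IgG, and the part of any remaining such cells in these values was not tested. *Nfkbia*, *Tnfaip3* and *Nfkbiz*, which encode regulators of NF-κB, had differences of 1.05, 1.00 and 0.61. The FPKM of *Nfkbia* was 117.9 in WT and 244.5 in RhoA-deficient cells. *Per1*, a circadian repressor, had a difference of 0.94, *Dusp4*, a MAP kinase phosphatase, one of 0.88, *Arc* one of 0.77 and *Trib1*, a pseudokinase, one of 0.62. The 2 lower genes were *Klf2*, a transcription factor that is abundant in endothelium and lymphocytes, with -1.14, and *Ccn2*, which encodes the matricellular protein CTGF, with -0.92.

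Of 32 genes known as SRF and MRTF targets, 3 were in the table, and the other 29 were not analysed here. All 3 were lower in RhoA-deficient cells on the authors' scaling, as were 44.8% of the genes in the table. They were also lower relative to the AT2 markers, which follows from their lower level because the AT2 marker median is positive. Against those markers, 135 of the 812 genes of the table were higher. *Acta2*, which encodes smooth muscle actin, had an FPKM of 65.5 in WT and 33.9 in RhoA-deficient cells. *Cnn1*, which encodes calponin, had an FPKM of 9.04 in WT and 1.97 in RhoA-deficient cells. *Ccn2*, also on the early response list, had an FPKM of 173.5 in WT and 91.1 in RhoA-deficient cells. *Acta2* and *Cnn1* are also transcripts of smooth muscle cells and myofibroblasts, and the fibroblast markers *Dcn* and *Col1a2* were lower too, by -1.75 and -1.01. The part of such cells in these 3 values was not tested.

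Around the heat shock and PERK genes, few other genes were in the table. Of 67 heat shock proteins and co-chaperones, 4 were listed, the 3 described above and *Bag3*, a co-chaperone that binds HSP70. *Bag3* had an FPKM of 37.7 in WT and 61.5 in RhoA-deficient cells, with a difference of 0.69, and like the other 3 it was higher on the authors' scaling and lower relative to the AT2 markers. The other 63, which include *Hsp90aa1*, *Hsph1*, *Dnajb1* and *Hspa8*, were not analysed here. Of the 34 targets of ATF4 and CHOP, the factors downstream of PERK, 3 were in the table. These were *Gdf15*, which encodes a stress-induced cytokine, with 43.0 and 92.6 FPKM, *Sesn2*, which encodes a regulator of mTORC1, with 35.0 and 61.9 FPKM, and *Vegfa*, the angiogenic growth factor, with 94.2 and 157.4 FPKM, each in WT and RhoA-deficient cells. Their differences were 1.09, 0.81 and 0.73. Of the 39 targets of the other ER stress sensors, ATF6 and IRE1, *Herpud1* and *Dnajb9*, which act in ER-associated degradation and folding, were in the table, with differences of 0.92 and 0.66. All 5 of these ER stress genes were higher on the authors' scaling and below the AT2 marker median. The same held for the 4 heat shock genes. Over the table, 55.2% of genes were higher on the authors' scaling. Of these 448 genes, 135 lay above the AT2 marker median, so lying below it was common among them. The ER chaperone *Hspa5* and the factors *Atf4*, *Ddit3* and *Xbp1* were not analysed here.

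**Figure D3:**
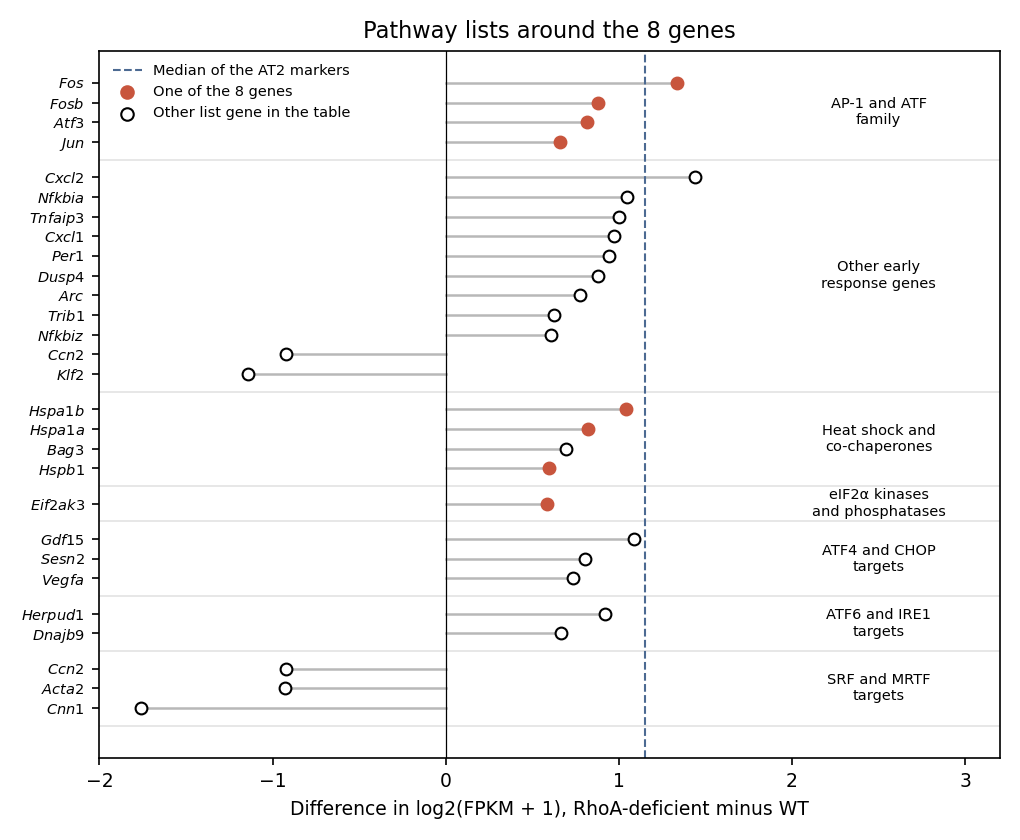
Difference in log2(FPKM + 1), RhoA-deficient minus WT, of the genes in the table from the AP-1 and ATF, early response, heat shock, eIF2α, ER stress and SRF lists, with filled points for the 8 genes, open points for other genes and a dashed line at the AT2 marker median of 1.15. Of the genes plotted, *Fos* and *Cxcl2* lie beyond the dashed line, the other higher genes lie below it, and *Klf2*, *Ccn2*, *Acta2* and *Cnn1* lie below 0.

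The AT2 label was checked against 14 AT2 marker genes, and the markers differed between the groups together with the 8 genes. Of the 14, 12 were in the table and all 12 were higher in the RhoA-deficient group, with differences from 0.93 to 3.16. Their summed FPKM was 2230 in the WT group and 4966 in the RhoA-deficient group, and none of the 12 was at 0. *Sftpc* and *Nkx2-1* were not analysed here. Of 57 markers of AT1, club, ciliated, endothelial and immune cells and fibroblasts, 18 were in the table, and 14 of these were lower in the RhoA-deficient group, while *Ager*, *Clic5*, *Cd14* and *S100a9* were higher. The lymphocyte markers *Cd4*, *Cd8a* and *Ptprc* summed to 39.2 FPKM in WT and 10.7 in RhoA-deficient cells, and the club cell marker *Scgb1a1* had 27285 and 9204 FPKM. In both groups *Scgb1a1* alone thus stood above the summed FPKM of the 12 AT2 markers, so the RNA also held transcripts typical of club cells. That sum leaves out *Sftpc*, which is not in the table, so the balance of club and AT2 transcripts cannot be read from it. In bulk RNA, fewer cells of a type and less RNA per cell cannot be told apart, and the part of these marker shifts in the values of the 8 genes was not tested. Set against the AT2 marker median of 1.15, *Fos* was 0.18 higher, while *Hspa1b* was at -0.11, *Fosb* at -0.27, *Hspa1a* at -0.33, *Atf3* at -0.34, *Jun* at -0.49, *Hspb1* at -0.55 and *Eif2ak3* at -0.57.

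**Figure D4:**
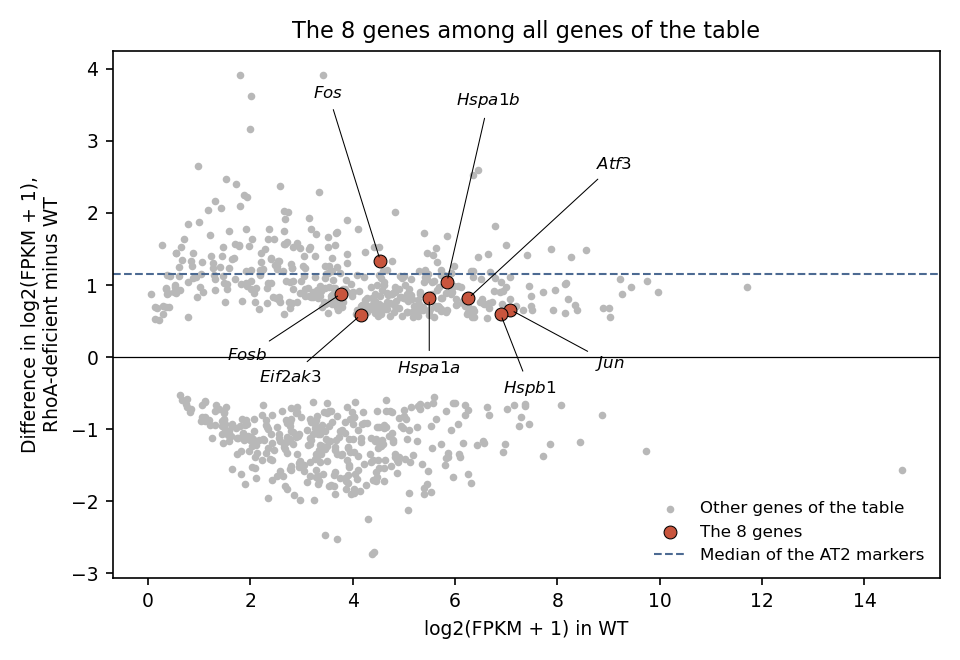
Difference in log2(FPKM + 1), RhoA-deficient minus WT, against the WT level in log2(FPKM + 1) for the 812 genes of the table, with the 8 genes named and a dashed line at the AT2 marker median of 1.15. The 8 genes lie between 0.59 and 1.33 among the higher genes, and all except *Fos* are below the dashed line. On this scale 434 genes are at least 1.5-fold higher and 361 at least 1.5-fold lower, and the table lists only genes the authors marked as significant.

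The genes whose pair of levels was most like that of each of the 8 were found by the distance between log2(FPKM + 1) values over the 2 groups, which is a short pattern. The closest match was that of *Atf3* with *Rnase4*, at a distance of 0.012, where *Rnase4* had 76.0 FPKM in WT and 134.7 in RhoA-deficient cells. *Dnajb9* came next for *Atf3*, at 0.11. *Fos* was nearest to the AT2 marker *Abca3*, a lipid transporter of lamellar bodies, at 0.11, and then to *Car2*, at 0.13. *Hspa1b* was nearest to *Krt23*, at 0.070, and *Il24*, at 0.089, and *Hspa1a* to *H2-Eb1*, at 0.090, and *Fasn*, at 0.10. *Fosb* was nearest to *Tlr2*, at 0.077, and *Lama3*, at 0.093. *Eif2ak3* was nearest to *Zdhhc9*, at 0.073, and *Abr*, at 0.12. For *Jun* and *Hspb1*, whose levels few genes reached, the nearest genes were further away, *Lamb3* and *Ndrg1* at 0.15 and 0.18, and *Glul* and *Lpin2* at 0.16 and 0.17. *Hspa1a* and *Hspa1b* were not among the 2 nearest genes of each other.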

How the data were processed

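RNA-seq was performed on CRE-treated AT2 cells of both genotypes. Per the paper's methods, the authors made stranded mRNA libraries, aligned reads with STAR 2.7.2b to GRCm38, annotated them with Partek and compared the genotypes with Cufflinks. The submitters' processing notes name mm9 instead, but 651 of the 812 loci equal the gene spans of GENCODE M21 (GRCm38). In the deposited table, the authors gave FPKM as 1 average per genotype. The columns of the authors' own comparison (fold change, test statistic, p-value, adjusted p-value and a mark of significance) were not used, except that every listed gene carries the mark. Depth per sample is unknown, and no interval is given.

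Differences of log2(FPKM + 1), ratios, counts, distances and motif matches were computed with Python 3.11.15, pandas 2.3.3, NumPy 2.4.6 and Biopython 1.88, and tested on simulated data. All 812 identifiers matched GENCODE M21 without their version. The limma test foreseen for values per sample could not be run. The named genes were the 8 genes, list members in the table, markers where discussed, and the 2 nearest genes of each. The genes, lists and motifs were chosen with earlier results of these data known. Alternatives were pseudocounts of 0.1 and 0.01, a mean FPKM of at least 1 or 5, a fold of 1.5, and centring on the AT2 markers.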

Additional observations from a re-analysis of the deposited data

How the results depend on the processing

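Pseudocounts of 0.1 and 0.01 left the differences of all 8 genes within 0.1 on the log2 scale. All 8 genes passed a mean FPKM of at least 1 or 5, filters that drop genes and cannot change a difference. Centring on the AT2 marker median lowered every difference by 1.15, by its construction. That median holds only markers that the authors marked as significant, so the centred values are set against a selected reference. *Fos* was then at 0.18, *Fosb* at -0.27, *Jun* at -0.49, *Atf3* at -0.34, *Hspa1a* at -0.33, *Hspa1b* at -0.11, *Hspb1* at -0.55 and *Eif2ak3* at -0.57, and 0 of the 8 were at least 2-fold higher, against 2. The list medians became -0.30 for the AP-1 and ATF family, -0.27 for the other early response genes, -0.39 for the heat shock list, -0.35 for the ATF4 and CHOP targets, -2.08 for the SRF and MRTF targets and 0.078 for the MAPK feedback regulators, with 1, 1, 0 and 0 higher genes in the first 4. Over the table, 135 genes were then higher, 14 at least 2-fold higher and 364 at least 2-fold lower. A fold of at least 1.5 was passed by all 8 genes, and by 434 higher and 361 lower genes of the table, against 192 and 231 at 2-fold. A mean FPKM of at least 5 left 148 genes at least 2-fold lower. The median of the MAPK feedback regulators was 1.65 with a pseudocount of 0.1 and 1.71 with 0.01. Leaving out a replicate was not run, since the table has no values per sample. No paired analysis was possible because each genotype has a single averaged value. Unknown depth limits every difference here.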

Other observations

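Of 20 feedback regulators of MAP kinase signalling, the pathway that induces *Fos*, 3 were in the table, and all 3 were higher in RhoA-deficient AT2 cells on the authors' scaling, as were 55.2% of the genes in the table. *Etv5*, a transcription factor that is also an AT2 marker, had an FPKM of 2.45 in WT and 9.14 in RhoA-deficient cells, with a difference of 1.56 in log2(FPKM + 1). *Spred3*, which encodes an inhibitor of ERK signalling, had an FPKM of 1.43 in WT and 4.69 in RhoA-deficient cells, with a difference of 1.23. *Dusp4*, with 39.0 and 72.7 FPKM, was below the AT2 marker median of 1.15, which the other two exceeded.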
